A study of Mus musculus with 4 samples.

Results

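The NF-kappaB subunit and inhibitor genes comprise 10 of the 21900 protein-coding genes in the gene table, taken by symbol: the subunit genes Rel, Rela, Relb, Nfkb1 and Nfkb2, and the inhibitor genes Nfkbia, Nfkbiz, Nfkbid, Bcl3 and Tnfaip3. The binding of KAP1 around them was mapped by chromatin immunoprecipitation and sequencing in regulatory T cells, the CD4 T cells that restrain immune responses, which were sorted from the spleen of C57BL/6 mice and expanded in culture. The 2 samples compared here, replicates 1 and 2, were precipitated with an anti-KAP1 antibody (1Tb-A9), and 2 input samples without antibody were not analysed here. All samples are of 1 strain, tissue and cell type with no treatment or genotype contrast, no age is given, and whether the replicates are separate cultures or animals is not stated. Each KAP1 sample has a list of peak summits, the bases of highest enrichment, and for each one the peak caller's significance score on a −log10 scale.

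KAP1, the product of Trim28, is a corepressor protein recruited to chromatin by KRAB-domain zinc finger factors, where it gathers histone methyltransferase and heterochromatin proteins. NF-kappaB factors are dimers of Rel-family proteins that bind kappaB sites in DNA. In resting cells inhibitor proteins of the IkappaB family hold them in the cytoplasm, and antigen receptor or cytokine signals destroy the inhibitor and let the dimers enter the nucleus. In regulatory T cells c-Rel is known for its part in the induction of Foxp3 during development, and p65 for its part in the activated cells. Several genes of the family carry kappaB sites in their own promoters and are known to be switched on by NF-kappaB itself.

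The replicate 2 list is 8.97 times the length of the replicate 1 list, with 79515 against 8862 summits, and neither list records how many reads were sequenced. Pairs of scores and percentiles below give replicate 1 first and replicate 2 second, each on the scale of its own list. A site was counted as shared when a replicate 2 summit lay within 200 bp of a replicate 1 summit, which held for 87.1% of the summits in the first list and 9.71% of those in the second. Shared summits lay within 1 kb of an end in 2 of 5 regulatory T cell marker genes (Il2ra and Ctla4), 2 of 5 T cell marker genes (Cd3g and Cd28), and none of 5 B cell or 5 myeloid marker genes, beside 8.56% of coding genes. In the same order of classes, the counts within 20 kb were 5, 5, 2 and 2 of 5, beside 32.7% of coding genes. In bodies they were 1, 0, 0 and 1, beside 12.4%. At ends with all replicate 2 summits they were 2, 2, 0 and 2, beside 22.2%. A summit near several genes was counted for each of them. Cd3e, Cd3g and Cd3d had 1 shared summit each within 20 kb, which may be the same one. Foxp3 had 2 shared summits within 20 kb and none at an end or in its body. Summits record where KAP1 was found and not how strongly a gene was expressed.

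The sequences below show the promoter nearest to each of 2 shared sites, and 3 promoters of the same gene group that had no summit of either list in them. They are RefSeq windows of GRCm38.p6, from 250 bases before to 50 bases after a listed transcript start, written along the strand of the gene. In the Nfkb2 window (chr19:46304487-46304786, plus strand), capitals mark matches to the kappaB consensus, and the shared summit lay 184 bp beyond its last base. In the window of Clasrp, the gene next to Relb (chr7:19604437-19604736, minus strand), capitals mark the 21 bases centred on the replicate 1 summit. The windows of Nfkbia (chr12:55492598-55492897, minus strand), Rel (chr11:23770920-23771219, minus strand) and Tnfaip3 (chr10:19015361-19015660, minus strand) were chosen after their values were seen, and capitals again mark kappaB matches.
Nfkb2: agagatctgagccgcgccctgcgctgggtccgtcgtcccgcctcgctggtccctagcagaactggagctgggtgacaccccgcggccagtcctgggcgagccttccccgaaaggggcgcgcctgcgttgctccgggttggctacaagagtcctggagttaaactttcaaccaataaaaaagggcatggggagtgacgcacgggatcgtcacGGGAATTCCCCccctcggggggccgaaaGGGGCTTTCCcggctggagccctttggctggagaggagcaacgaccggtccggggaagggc
Clasrp: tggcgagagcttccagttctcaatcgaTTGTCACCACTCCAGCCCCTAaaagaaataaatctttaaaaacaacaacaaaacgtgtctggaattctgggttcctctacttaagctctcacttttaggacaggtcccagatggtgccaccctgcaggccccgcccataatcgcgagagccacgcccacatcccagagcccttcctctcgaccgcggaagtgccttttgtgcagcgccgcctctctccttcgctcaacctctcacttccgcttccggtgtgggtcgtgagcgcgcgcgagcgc
Nfkbia: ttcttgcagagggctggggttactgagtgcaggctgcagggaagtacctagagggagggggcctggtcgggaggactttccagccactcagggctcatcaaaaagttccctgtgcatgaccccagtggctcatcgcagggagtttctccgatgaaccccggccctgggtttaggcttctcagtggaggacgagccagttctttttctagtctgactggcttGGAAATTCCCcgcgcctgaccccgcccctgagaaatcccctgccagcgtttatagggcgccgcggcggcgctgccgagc
Rel: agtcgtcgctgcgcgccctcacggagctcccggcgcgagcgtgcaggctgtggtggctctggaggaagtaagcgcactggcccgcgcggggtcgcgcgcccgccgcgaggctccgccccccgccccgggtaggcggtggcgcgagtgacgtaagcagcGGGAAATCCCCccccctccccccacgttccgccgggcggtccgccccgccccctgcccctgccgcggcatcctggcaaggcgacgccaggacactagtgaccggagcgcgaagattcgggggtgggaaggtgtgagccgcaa
Tnfaip3: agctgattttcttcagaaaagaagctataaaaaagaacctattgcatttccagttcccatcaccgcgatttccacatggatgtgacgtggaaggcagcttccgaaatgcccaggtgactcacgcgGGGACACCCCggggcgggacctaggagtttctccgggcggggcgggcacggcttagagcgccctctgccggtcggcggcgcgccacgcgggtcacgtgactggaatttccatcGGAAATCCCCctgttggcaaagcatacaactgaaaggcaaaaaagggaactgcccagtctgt

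The kappaB consensus, searched on both strands with overlapping matches counted, was found in 8 of the 12 listed promoter windows of these genes. The share was 4.51% of all 32851 windows of the same length and 4.81% of the 21263 windows of coding genes. The promoter table was matched for 7 of the genes, and 6 of these had a match in at least 1 window, against 5.53% of 17492 coding genes. Rela was the exception. In the printed Nfkb2 window the matches began 39, 38 and 11 bases before the start, the first pair overlapping. The exact kappaB site of the immunoglobulin kappa light chain enhancer occurred in the other 2 Nfkb2 windows, which overlap and share that site, and in 0.155% of all windows. Nfkbia had a match 29 bases before its start, Rel an overlapping pair 92 and 91 bases before, and Tnfaip3 matches 125 and 12 bases before its outer start. A looser kappaB pattern, also searched on both strands, matched in every listed window of these genes, Rela included, and in 50.8% of all windows. The windows of these genes held a median of 21 CG dinucleotides (range 6 to 42), against a median of 13 for windows of coding genes. A match is a stretch of letters and does not show that a factor was bound there.

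KAP1 summits shared by the replicates lay inside 4 of these genes and within 20 kb of 7, with none at an end. None of the 10 genes had a shared summit within 1 kb of either end, beside 8.56% of coding genes. Among only 10 genes, a count of 0 is close to that share. In gene bodies, the part of a gene more than 1 kb from both ends, 4 of 10 genes (Rel, Nfkb1, Nfkb2 and Nfkbiz) had a shared summit, beside 12.4% of the 19304 coding genes long enough to have a body. Among the coding genes no shorter than the shortest and no longer than the longest of the 10 genes, the share with a shared body summit was 11.4%. Within 20 kb of the gene, 7 of 10 had a shared summit, beside 32.7% of coding genes and 36.5% of those in the same range of lengths. Rela, Nfkbid and Tnfaip3 had none in that span. With replicate 2 reduced to its 8862 highest scores, the counts were 0 of 10 at an end (3.88% of coding genes), 1 in the body (6.12%) and 4 within 20 kb (18.0%). No test was made, since the lists come from 2 samples of 1 group and these genes were chosen with results of the data known.

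In each replicate's own list the counts rose from ends to bodies to the 20 kb span, as the shares of all coding genes did. The 20 kb span includes ends and bodies by definition, so this order is not particular to these genes. With all replicate 1 summits, 0 of 10 genes had one at an end (9.42% of coding genes), 5 in the body (13.3%) and 8 within 20 kb (34.3%). With all replicate 2 summits, 2 of 10 had one at an end (22.2% of coding genes), 6 in the body (54.4%) and 10 within 20 kb (80.9%, and 85.1% in the same range of lengths). The longer list therefore reaches most genes of any kind within 20 kb, and its end and body shares for these genes stood close to those of all coding genes. The 2 genes with a replicate 2 summit at an end were Nfkb2, 948 bp outside its lower end, and Nfkbid, 934 bp inside its higher end, with scores of 6.62 and 6.18. Both scores lie in the lowest 25% of replicate 2, at percentiles 24.8 and 16.3.

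**Figure D1:**
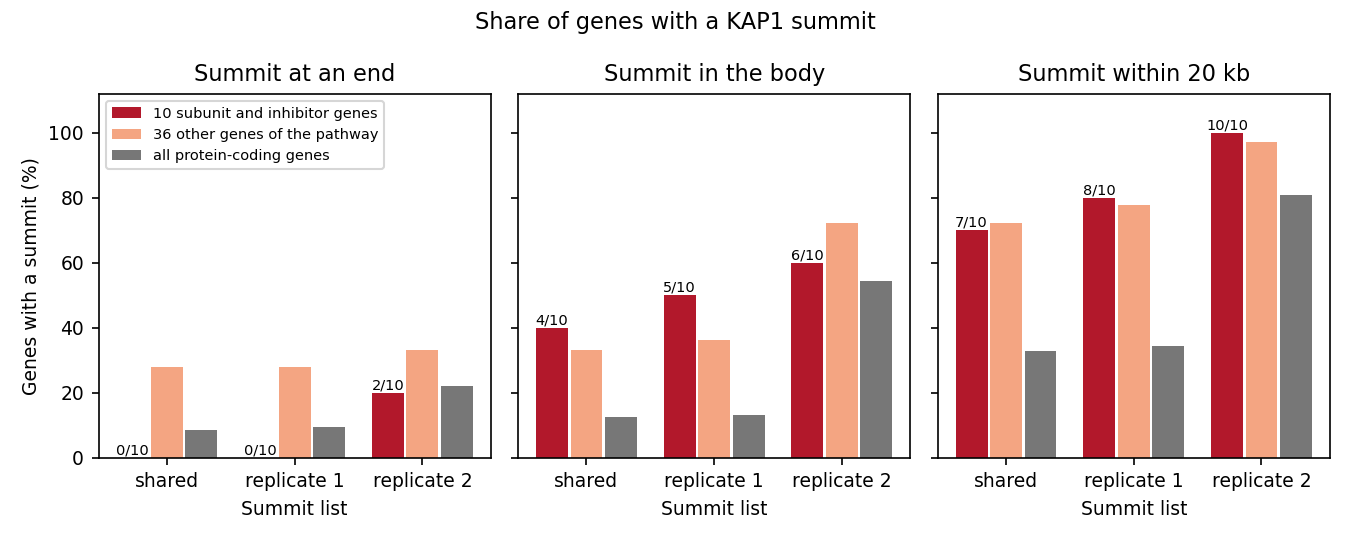
Percent of genes (vertical axis) with a KAP1 summit at an end, in the body or within 20 kb, for shared summits and for each replicate's own list. Red bars are the 10 subunit and inhibitor genes with their counts, orange bars 36 other genes of the pathway and grey bars all protein-coding genes. The red bars are at 0 for shared summits at an end, beside 8.56% of all coding genes, and at 70% within 20 kb, beside 32.7%.

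In all, 15 replicate 1 summits and 35 replicate 2 summits lay within 20 kb of the 10 genes, and 11 pairs of them were shared. Of the replicate 1 summits 73.3% were shared and 4 were not. Paired summits lay a median of 3 bp apart and at most 30 bp, and the closest unpaired replicate 1 summit was 3295 bp from a replicate 2 summit, so the 200 bp limit fell in a wide gap. Of the 11 shared sites, 6 lay in gene bodies and 5 in the flanks. Nearest to the 1 kb limit for an end were a replicate 2 summit at 948 bp inside it and one at 1484 bp outside it, and the closest shared site was at 1518 bp. The farthest summit inside the 20 kb limit lay at 19842 bp and the closest outside it at 21470 bp.

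**Figure D2:**
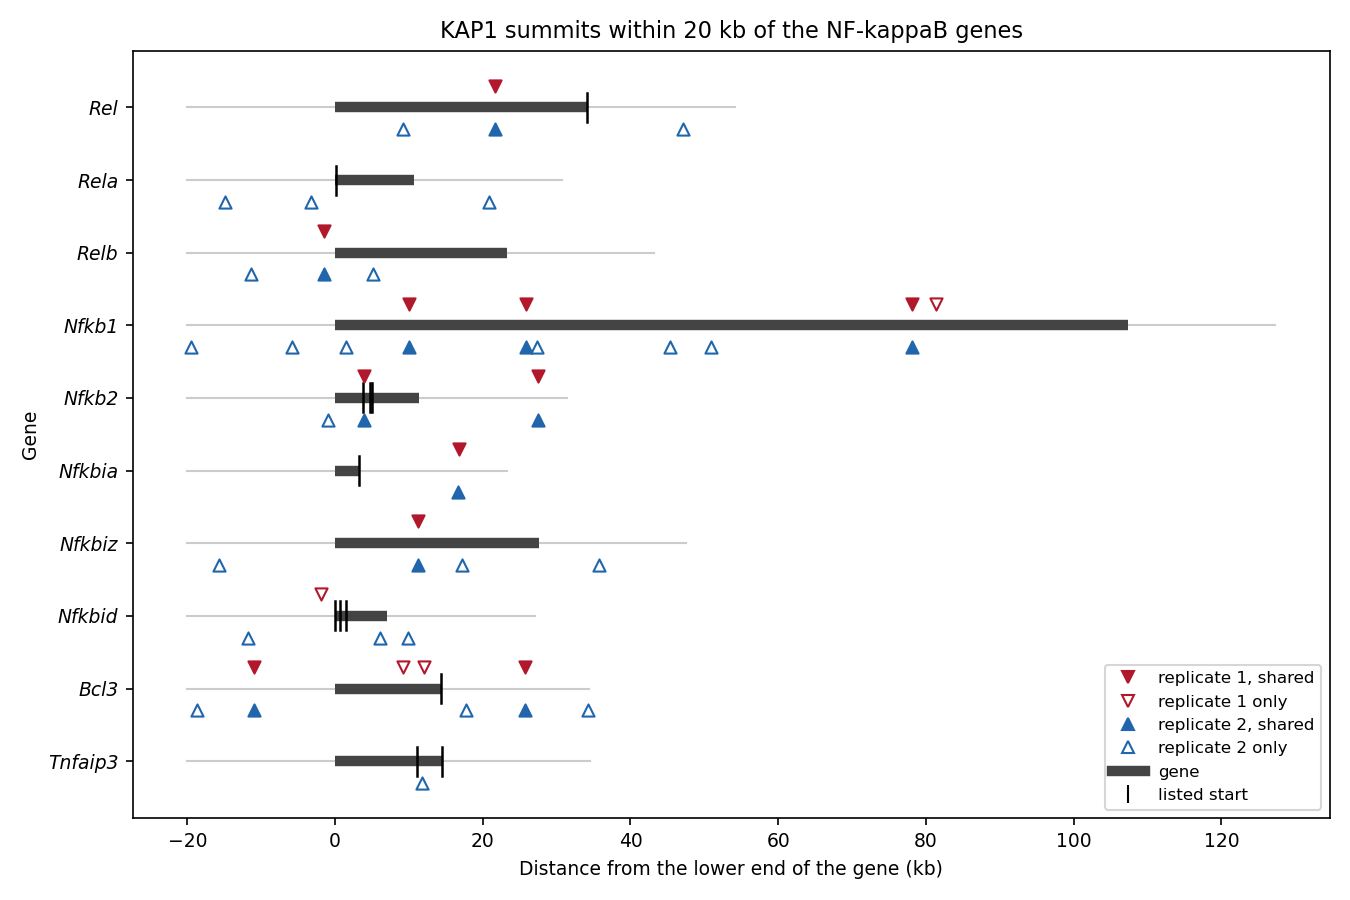
Position of every summit (horizontal axis, kb from the lower end of the gene) within 20 kb of each gene, with replicate 1 above and replicate 2 below each gene bar. Filled triangles are shared sites, open triangles are found in 1 list only, and black ticks are listed transcript starts. Filled triangles fall inside Rel, Nfkb1, Nfkb2 and Nfkbiz and none within 1 kb of an end.

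Among the subunit genes, Nfkb1 had the most shared sites. It encodes the p105 precursor of the p50 subunit and lies on chromosome 3 from 135584655 to 135691969 (107315 bp, the longest of the 10). Its 3 shared sites were all in the body. The first lay 9943 bp inside the lower end at position 135594598, on the same base in both lists, and scored 4.17 and 6.97, low in both lists (percentiles 14.3 and 26.9). At 25835 bp inside the lower end, position 135610490, a stronger site had scores of 9.86 and 13.1, and this one also lay inside Gm46827, a long noncoding RNA gene, 2066 bp from that gene's nearer end. The third was 29209 bp inside the higher end at position 135662760 and scored 8.72 and 9.66, at percentiles 62.8 and 61.9. A replicate 1 summit 25911 bp inside the higher end, with a score of 5.10, had no partner.

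The other 6 summits of replicate 2 within 20 kb of Nfkb1 had scores between 5.02 and 11.7, 4 of them in the body. Of the 3727 coding genes between 0.5 and 2 times its length, 8.29% had at least 3 shared summits within 20 kb and 3.51% had at least 3 in the body. By the counts of shared and unshared summits in the 2 samples, the genes most like Nfkb1 were Rab11fip4, Scml4 and Ppp1r16b. Rab11fip4 had 2 shared body summits, Scml4 had 4 and Ppp1r16b had 3, and none of them had a shared summit at an end or in the flanks. Each differed from Nfkb1 by 1 summit in all.

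Nfkb2 encodes the p100 precursor of the p52 subunit of the alternative pathway. Among the 7 genes with a listed start, it alone had a shared site beside one. Relb, Nfkb1 and Nfkbiz had no listed start and could not be assessed. Nfkb2 lies on chromosome 19 from 46300994 to 46312400. The shared summit at position 46304970 was 3976 bp inside the lower end of the gene and was therefore counted in the body, but it lay 233 bp downstream of a listed Nfkb2 transcript start, the start of the printed window. It also lay 659 bp inside the end of 4833438C02Rik, a long noncoding RNA gene. Its scores were 5.10 and 5.79, which are among the lower ones of both lists (percentiles 28.6 and 14.0). Counted by listed starts in place of gene ends, 1 of the 7 genes with a listed start had a shared summit within 1 kb of one, beside 8.16% of 17492 coding genes. A second shared site of Nfkb2 lay 16068 bp beyond its higher end, with the lowest scores of the 11 (3.21 and 5.51). That one fell 284 bp inside Fbxl15, an F-box protein gene, and 341 bp outside Psd.

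Rel encodes c-Rel, the subunit that follows antigen receptor signals in lymphocytes, and lies on chromosome 11 from 23736847 to 23770969. Its only shared site was in the body at position 23758436, 12533 bp downstream of its listed start, with scores of 8.34 and 14.3. The replicate 2 score ranked higher in its list (percentile 87.2) than the replicate 1 score did (58.3). The other 2 summits were found in replicate 2 alone, one in the body with a score of 11.6 and one 12933 bp upstream of the start with a score of 9.52.

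Relb encodes the subunit that pairs with p52, and lies on chromosome 7 from 19606217 to 19629438. Its shared site was outside the gene at position 19604699, 1518 bp below its lower end, with scores of 8.34 and 28.1. The replicate 2 score was the highest of the group, at percentile 97.7. This site fell within the printed Clasrp window, 213 bp upstream of the listed start of Clasrp, which encodes a protein that binds a kinase of splicing factors. It was thus closer to Clasrp than to Relb, and the lists cannot assign it to either gene. Inside Relb there was 1 replicate 2 summit without a partner, 5086 bp from the lower end, with a score of 13.3.

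Rela encodes p65, the main activating subunit, and lies on chromosome 19 from 5637442 to 5648134. It had no replicate 1 summit within 20 kb. Replicate 2 had 3 there, with scores of 9.15, 6.72 and 7.40, all outside the gene, and the last of them lay in the body of Sipa1. The nearest shared summit was 79044 bp away, the farthest of any gene in the group.

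Among the inhibitors, Nfkbia and Nfkbiz each had 1 shared site that ranked high in replicate 2. Nfkbia encodes IkappaB-alpha, the inhibitor that holds NF-kappaB in the cytoplasm and is destroyed on activation, and lies on chromosome 12 from 55489409 to 55492647 (3239 bp, the shortest of the 10). Its only summits of either list within 20 kb formed a shared site at position 55506120, 13473 bp upstream of its listed start and outside any gene of the table. The scores there were 13.2 and 23.0, at percentiles 77.5 and 96.6. Nothing was found in either list at its kappaB-bearing promoter, shown among the sequences above.

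Nfkbiz encodes IkappaB-zeta, a nuclear member of the family that acts with p50 on selected genes, and lies on chromosome 16 from 55811375 to 55838954. Its shared site was in the body at position 55822636, 11261 bp from the lower end, with scores of 10.3 and 23.4. The replicate 2 score stood at percentile 96.7 and the replicate 1 score at 68.2. Replicate 2 had 3 further summits near the gene with scores of 8.69, 5.64 and 11.1, of which the last lay in the body of Nxpe3.

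Bcl3 encodes another nuclear inhibitor-like protein, which binds p50 and p52 dimers, and lies on chromosome 7 from 19808462 to 19822824. It had 2 shared sites, both in the flanks. The one at position 19834135 lay 11380 bp upstream of its listed start, inside the long noncoding RNA gene Gm34891, with scores of 14.4 and 19.9, the highest replicate 1 score of the group (percentile 81.4). The one at position 19797446 lay 11016 bp below the lower end, 25309 bp downstream of the start, and 637 bp outside the end of Cblc, with scores of 8.34 and 9.08. In the Bcl3 body, 2 replicate 1 summits had no replicate 2 partner, at scores of 3.21 and 8.34, and replicate 2 had none there. The replicate lists thus disagreed inside Bcl3 itself, where the shorter list had sites that the longer one lacked.

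Nfkbid and Tnfaip3 had no shared site within 20 kb. Nfkbid encodes the nuclear inhibitor IkappaB-NS and lies on chromosome 7 from 30421731 to 30428749. Its single replicate 1 summit had a score of 4.17 and no partner, and lay 1932 bp upstream of the first listed start and 55 bp inside the end of Hcst, the gene of the DAP10 adaptor. Replicate 2 had 3 summits with scores of 9.14, 6.18 and 5.92. The nearest shared summit was 26620 bp below the gene, with scores of 18.4 and 21.1.

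Tnfaip3 encodes A20, a ubiquitin-editing enzyme induced by NF-kappaB that shuts the pathway down, and lies on chromosome 10 from 19000910 to 19015410. Its only summit within 20 kb was found in replicate 2 alone, with a score of 12.5 (percentile 81.5). It lay in the body, 2787 bp inside the higher end and 660 bp upstream of the inner of its 2 listed starts. The nearest shared summit was 47304 bp away, with scores of 9.50 and 10.1.

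The scores of the 11 shared sites were spread from low to high ranks in both lists. In replicate 1 they ran from 3.21 to 14.4 with a median percentile of 58.3, which is also the median percentile of all 7720 shared sites. In replicate 2 they ran from 5.51 to 28.1 with a median percentile of 83.1, against 81.2 for all shared sites. Sites by Relb, Nfkbia, Nfkbiz and Bcl3 stood in the highest 5% of replicate 2, while both Nfkb2 sites stood in the lowest 15%. Many replicate 1 scores are tied: 8.34 was the score of 4 of the 15 summits near these genes and of 577 summits in the list. The 24 replicate 2 summits without a partner scored from 5.02 to 13.7, with a median of 8.91, and 14 of them lay in the flanks, 8 in bodies and 2 at ends.

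Other genes of NF-kappaB signalling were counted the same way, over 36 genes. They were genes for receptor-proximal complexes, kinases and their partners, adaptors, nuclear cofactors, ubiquitin enzymes and binders, and other IkappaB-type proteins. A shared summit lay at an end in 10 of 36 genes (27.8%), in the body of 12 (33.3%) and within 20 kb of 26 (72.2%). The background shares of coding genes are the 8.56%, 12.4% and 32.7% given above. Other genes at the end sites of the 36 genes were not looked up, so such a site may also lie at the end of a neighbour. At ends the count was 3 of 36 with replicate 2 reduced, beside 3.88% of coding genes, and 6 of 36 with ends of 500 bp, beside 5.94%. Side by side, the 10 subunit and inhibitor genes had shares of 0% at ends, 40% in bodies and 70% within 20 kb, and the differences from these 36 genes were not tested. The kinase class holds 10 genes, among them Chuk and Ikbkb for the catalytic subunits of the IkappaB kinase. It also holds Ikbkg, Tab1, Tab2 and Tab3, which encode partners of the kinases and not kinases. None of the 10 had a shared summit at an end. Among 10 genes that count is close to the 8.56% of coding genes. In the body 3 genes of this class (Map3k14, Tab1 and Tab2) had a shared summit, and within 20 kb 5 did.

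By class, shared end summits were found in 2 of 3 other IkappaB-type genes (Nfkbie and Nfkbil1), 1 of 2 nuclear cofactors and 1 of 2 genes of the antigen receptor complex. They were also found in 3 of 6 TRAF adaptors, a class that includes the TRAF-binding Tank, and 3 of 13 ubiquitin enzymes and binders. The share of all coding genes was 8.56%, and the classes are small. Nfkbie, the gene of the cytoplasmic inhibitor IkappaB-epsilon, had the highest mean percentile of the 2 scores, with a site at position 45563767 of chromosome 17, 598 bp outside its higher end (scores 15.7 and 23.5). Traf1, a signalling adaptor gene induced by NF-kappaB, carried a site 37 bp beyond its higher end, scoring 17.0 in replicate 1 and 15.0 in replicate 2. Nkrf, the gene of a repressor of NF-kappaB target genes, carried a site 17 bp within its higher end, with replicate scores of 12.2 and 23.5. Otulin, the gene of a deubiquitinase for linear chains, was marked 8 bp below its lower end, with replicate scores of 11.9 and 14.5. The next by mean percentile were Traf6, Traf5, Nfkbil1 and Birc3, with replicate 1 scores from 7.64 to 13.2 and replicate 2 scores from 9.84 to 14.5. Malt1, the gene of a protease in the complex that links the antigen receptor to NF-kappaB, and Rnf31 completed the 10 genes and are named after their values were seen.

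**Figure D3:**
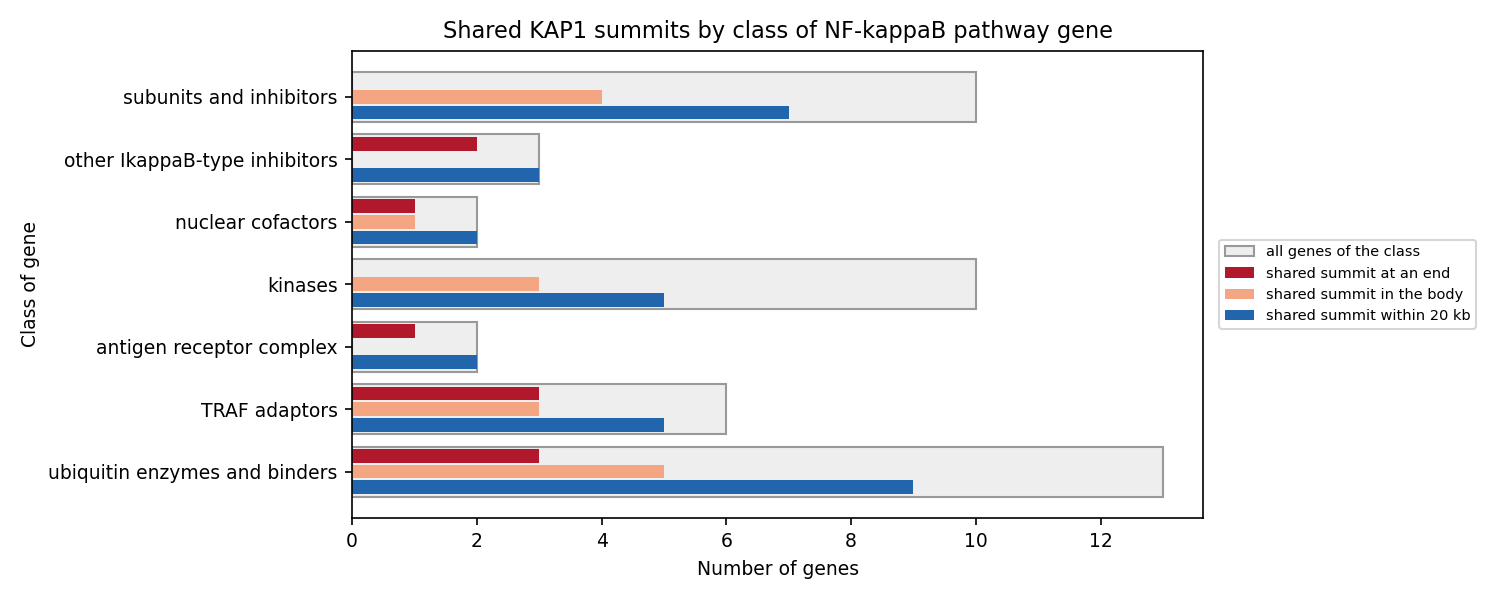
Number of genes (horizontal axis) in each class of the pathway with a shared summit at an end (red), in the body (orange) or within 20 kb (blue), over the number of genes in the class (grey). Red bars are absent for the subunits and inhibitors and for the class named kinases, and present in the 5 other classes. The share of all coding genes with a shared summit at an end was 8.56%, so an absent bar among 10 genes is close to it.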

How the data were processed

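KAP1 ChIP-seq libraries of regulatory T cells were used as 2 lists of peak summits, 1 per sample, as the authors deposited them. Bowtie2 2.2.9 and MACS2 2.2.1, with Picard 2.1.1, are named with build mm10 per the submitters' processing notes. Which settings, control and threshold were applied is not given in the sources used here. The deposited score of each summit is on a −log10 scale, as MACS writes it, and whether it derives from the p-value or the q-value is not stated. It was used only to describe and rank summits within a list. Depth is unknown.

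Positions are 1-based. Gene limits came from a RefSeq table of GRCm38.p6 (21900 coding genes) without strand, and starts and 300-base promoter windows from a RefSeq promoter table of the same assembly, which were searched for the kappaB consensus on both strands. An end is within 1000 bp of either limit, and a body is the rest of the gene. The nearest replicate 2 summit within 200 bp made a replicate 1 summit shared. The gene group and lists were chosen with earlier results of these data known, so counts are set beside those of all coding genes and no test was made.

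All 10 genes were named, with the 8 highest-ranking other pathway genes with a shared end summit, the 3 genes closest to the one with most shared sites, and genes at shared sites. A planned pathway gene is not reported here. Alternatives were pairing at 50 or 500 bp, scores at or above the median, replicate 2 reduced to 8862 summits, merging within 1000 bp, 1 replicate alone, ends of 500 or 2500 bp and flanks of 10000 or 50000 bp. The counting was tested on simulated data. Python 3.11.15, numpy 2.4.6 and pandas 2.3.3 were used.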

Additional observations from a re-analysis of the deposited data

How the results depend on the processing

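Of 45 recounts under other settings, 35 stayed within 1.5 times the count reported. Pairing at 50 or 500 bp, merging of neighbouring summits and the median score limit moved no count further than that. Some of these recounts could not move, so the tally is no measure of robustness. The count of 0 genes at ends cannot fall, and stricter limits only remove sites. Near the 10 genes paired summits lay at most 30 bp apart, and the closest unpaired replicate 1 summit was 3295 bp away. Pairing at 50 or 500 bp was therefore fixed for them. With ends of 2500 bp, 1 of the 10 genes (Relb) had a shared end summit, and the share of coding genes at that width is not given here. With replicate 2 reduced to its 8862 highest scores, 1 gene had a shared body summit (Nfkbiz), beside 6.12% of coding genes. In that recount 4 genes had one within 20 kb (Relb, Nfkbia, Nfkbiz and Bcl3), beside 18.0%, and 4 shared summits lay there. Of the 36 other pathway genes, 3 had one at an end, beside 3.88%. Ends of 500 bp left 6 of those 36, beside 5.94%. Flanks of 10000 and 50000 bp held 7 and 25 shared summits. A wider window can only hold as many or more for any gene, and the shares of coding genes at these flanks are not given here. Using 1 list alone, the summits within 20 kb numbered 15 without replicate 2 and 35 without replicate 1, and the genes with an end summit 0 and 2. The same recounts gave 5 and 6 genes for bodies, 8 and 10 within 20 kb, and 10 and 12 of the 36 pathway genes at an end. At ends the matching shares of coding genes were 9.42% and 22.2%. Fewer summits are available in the reduced list by construction, and no other cause was tested. No paired analysis was possible because the input samples have no list here and no test between groups was made. Read depth is unknown for both lists, so a site absent from one list was not detected there and is not shown to be unbound.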
